A study of Mus musculus with 15 samples.

Results

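Among the CG sites of mouse embryonic stem cells that gave the most 5-hydroxymethylcytosine (5hmC) signal, a small set gave no signal of unmodified cytosine at all. These sites were selected on read counts: an autosomal CG entered the set when it had at least 8 hmTOP-seq reads in both replicates made from 500 ng of DNA and no uTOP-seq read on either strand in any of 3 replicates. The rule was met by 40485 of 20383623 autosomal CGs, or 0.199%. A CG with at least 8 reads in both 500-ng replicates is called a strong 5hmCG here, of which there were 703601. The remaining 663116 strong 5hmCGs had at least 1 uTOP-seq read and serve as the comparison. The absence of uTOP-seq reads was found at 39.1% of all autosomal CGs and at 5.75% of strong 5hmCGs, and both values belong to the rule and are no result.

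All libraries were made from DNA of E14TG2a cells, an established mouse embryonic stem cell line kept without feeder cells on gelatin in medium with serum and leukemia inhibitory factor. In hmTOP-seq, T4 phage β-glucosyltransferase (BGT) attaches an azide-bearing glucose to 5hmC, an oligonucleotide is clicked to it, and a polymerase starts copying there, so that a read begins at the tagged cytosine. Labeled libraries were made from 500, 50 and 5 ng with 2 technical replicates each, and 2 control libraries per input went through the same steps without BGT. In uTOP-seq, the same principle is applied to unmodified CGs (uCGs), here with 300 ng and 3 replicates. The hmTOP-seq replicates were technical, so that tests on them measure the spread between libraries and not between cultures. Whether the uTOP-seq replicates were technical is not given in the sources used here.

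5hmC is made from 5-methylcytosine by the TET dioxygenases and is an intermediate in the removal of DNA methylation. In embryonic stem cells, it lies largely in gene bodies, at enhancers and beside CG islands. CG islands themselves, the CG-dense stretches at many promoters, are mostly unmodified. A read count is a measure of how often a site was tagged and copied, and no share of molecules can be read from it. A site without uTOP-seq reads can still hold unmodified cytosine in some cells.

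Single sites are shown here in the GRCm38 (mm10) sequence of the plus strand, with the CG of the set in capitals. The first 8 had the highest summed 50-ng coverage among the sites with a read in all 4 lower-input libraries, with 1 site per gene. They are shown as the sites of the set with most reads at 50 ng, so that their lower-input counts are high by choice.
Crxos intron, chr7:15888201-15888262: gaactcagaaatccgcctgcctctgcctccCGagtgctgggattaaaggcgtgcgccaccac
upstream of Elobl, chr11:88967835-88967896: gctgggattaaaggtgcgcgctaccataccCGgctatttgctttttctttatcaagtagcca
Jag2 coding exon, chr12:112912504-112912565: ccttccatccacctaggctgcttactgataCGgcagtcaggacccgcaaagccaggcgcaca
nearest gene Fam89a, chr8:124765332-124765393: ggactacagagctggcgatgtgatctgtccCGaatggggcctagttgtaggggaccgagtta
Iqgap1 intron, chr7:80741240-80741301: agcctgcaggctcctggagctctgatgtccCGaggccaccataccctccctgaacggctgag
nearest gene Sbf2, chr7:110297366-110297427: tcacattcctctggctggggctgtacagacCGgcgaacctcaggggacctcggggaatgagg
upstream of Dapk1, chr13:60600222-60600283: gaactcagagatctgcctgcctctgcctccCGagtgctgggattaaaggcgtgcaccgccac
Fam186b intron, chr15:99277917-99277978: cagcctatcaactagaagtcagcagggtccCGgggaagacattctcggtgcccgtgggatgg

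The CG in Crxos had 37 and 58 reads in the 500-ng replicates. The 50-ng replicates gave 41 and 51 reads and the 5-ng replicates 19 and 23. It lay in a soft-masked repeat, as did the CG upstream of Dapk1, and the printed sequences of both are alike. The CG in Jag2, which encodes a ligand of Notch receptors, had 74 and 14 reads in the 50-ng and 28 and 5 in the 5-ng replicates. At both inputs the first replicate thus held several times the reads of the second. The CG in Iqgap1, a scaffold protein of the actin cytoskeleton, had 52 and 33 reads in the 50-ng and 69 and 2 in the 5-ng replicates. Around the CG nearest to Fam89a, 21 other CGs lay within 250 bp and none of them had a uTOP-seq read either, while the site itself had 73 and 61 reads at 500 ng. Around the CG in Iqgap1, by contrast, 5 other CGs within 250 bp held 51 uTOP-seq reads together.

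Another 4 sites are shown because a second CG lies directly before them, an arrangement to which the results return. In each, the capitals mark the second CG of a CGCG, and the site was again taken by its 50-ng coverage.
nearest gene Zfp978, chr4:147418380-147418409: acaggaaatttacgCGgggatgggtgcggg
nearest gene Sema6b, chr17:56148970-56148999: cacacctgtccccgCGcaagctggaggagg
nearest gene Tnfsf13b, chr8:10049038-10049067: atcgaattcactcgCGgctgagatagacca
Adamts4 coding exon, chr1:171259060-171259089: gtttctttgtcccgCGgccagtcccttcaa

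The capital CG in Adamts4, a secreted protease that cuts aggrecan, had no uTOP-seq read, and the CG 2 bp before it had 23. At the site nearest to Sema6b the preceding CG had 28 uTOP-seq reads, and at the site nearest to Tnfsf13b it had 4. At the site nearest to Zfp978 the preceding CG had none.

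The share of CGs without uTOP-seq reads fell steadily as the 500-ng coverage rose. Where the lower of both 500-ng counts was 0, 46.1% of CGs had no uTOP-seq read, and where it was 1, 22.5% had none. Just outside the threshold, at a lower count of 7, it was 9.10% of 151976 CGs. Just inside, at 8, it was 8.15% of 119209 CGs. At 40 or more it was 1.30%, or 117 of 9030 CGs. The sites of the set were therefore not the extreme of the 5hmC signal: their mean 500-ng coverage was 14.2 and 13.5 reads against 17.2 and 16.3 at strong 5hmCGs with uCG reads. On the other threshold, 40485 strong 5hmCGs had 0 uTOP-seq reads, 33466 had 1, 38019 had 2 and 40495 had 3. More strong 5hmCGs thus had no read than a single one.

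**Figure D1:**
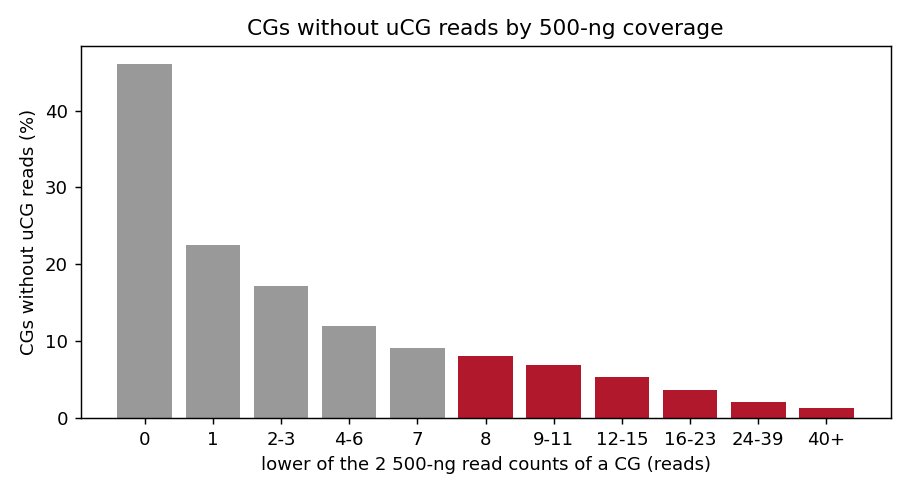
Share of autosomal CGs without any uTOP-seq read (y axis, %) by the lower of the read counts in both 500-ng replicates (x axis, reads). Grey bars are CGs below the threshold of 8 reads and red bars are strong 5hmCGs. The share falls from 46.1% at 0 reads to 1.30% at 40 or more.

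Chromosome 14 stood apart. Its strong 5hmCGs were without uTOP-seq reads in 12.7% of cases, 2996 of 23634, while the other 18 autosomes ranged from 4.33% to 7.10%. In the 1-Mb windows from 40 to 98 Mb of this chromosome, the uTOP-seq replicates held 0.670, 0.543 and 0.438 reads per CG, against 1.40, 1.13 and 0.990 on the other autosomes. The 500-ng hmTOP-seq replicates together held 2.68 reads per CG there and 3.16 on the other autosomes. The range runs from the first to the last window of chromosome 14 in which uTOP-seq replicates differed past a limit given below. Differing replicates at its ends thus belong to this choice. Most of the 2099 sites of this range, 1280, lay from 60 to 80 Mb, where the share was 18.2%. There the uTOP-seq replicates held 0.708, 0.576 and 0.507 reads per CG, each below the other autosomes. The 500-ng replicates together held 3.46 reads per CG there. From 84 to 94 Mb, with 39 sites, the uTOP-seq replicates held 0.344, 0.542 and 0.232 reads per CG. From 45 to 47 Mb, with 32 sites, replicate 1 held 1.35 reads per CG and replicates 2 and 3 held 0.583 and 0.472. Of 2389 windows of 1 Mb across the autosomes, 25 had a log2 ratio between uTOP-seq replicates more than 0.35 from its median, and 22 of them were on chromosome 14. The set without chromosome 14 held 37489 CGs. The 14 results of the set that were recomputed without it kept their direction.

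**Figure D2:**
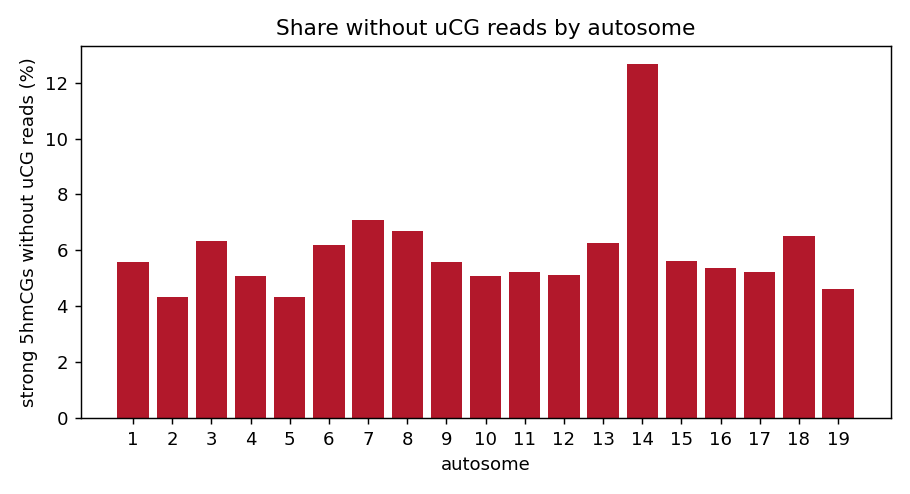
Strong 5hmCGs without uTOP-seq reads as a share of all strong 5hmCGs of each autosome (y axis, %). Chromosome 14 is at 12.7% and the other 18 autosomes lie between 4.33% and 7.10%.

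In number of sites, the order of the chromosomes was another one. Chromosome 8 held most sites, 3583, followed by chromosomes 11 and 7 with 3390 and 3158. These were 6.71% of 53394, 5.23% of 64867 and 7.10% of 44502 strong 5hmCGs. The 500-ng replicates together held 3.90, 4.51 and 3.19 reads per CG on chromosomes 8, 11 and 7, with a median of 3.19 over autosomes. The paper names aneuploidy and copy number variations as confounders of such read counts. Their part in these numbers was not tested. Chromosome 19 held the fewest, 1013. Chromosome 7 had the highest share after chromosome 14.

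The 50- and 5-ng libraries did not choose the sites, but sites of high labeled coverage at 500 ng would be likely to recur in them. Reads at the set made up 1.31 ± 0.0402% of all CG reads in the 4 labeled lower-input libraries (mean ± SD, n = 4) and 0.160 ± 0.180% in the 4 controls (n = 4). Strong 5hmCGs with uCG reads went the same way, with 27.4% to 28.9% in the labeled and 7.77% to 11.4% in the control libraries. The single values were 1.35% and 1.33% for labeled 50-ng, 1.27% and 1.27% for labeled 5-ng, 0.381% and 0.232% for control 50-ng, and 0.0267% and 0% for control 5-ng libraries. No control overlapped a labeled library, and the difference of 1.15 percentage points had p = 0.0286 (two-sided exact permutation test of libraries), the smallest p that 4 against 4 libraries can give. Since the sites were chosen for high labeled counts, the direction was largely given by the choice, and the p-value is no finding about the set. The test took 50- and 5-ng libraries as exchangeable, although the controls differed by input. In counts, the set had 311022 and 293145 reads in the labeled 50-ng libraries and 13 and 8 reads in the controls, which held only 3409 and 3448 CG reads in total. At 5 ng it had 189065 and 194656 reads, and 1 and 0 in the controls. In the 500-ng controls, whose labeled counterparts chose the set, it had 47 and 48 reads, or 0.467% and 0.513%. The exact 95% binomial interval of the control 5-ng replicate with 1 read reached 0.149%, and that of the replicate with 0 of 4790 reads reached 0.0770%. The limit that a count of 0 allows, set at 3 reads of the total, was 0.0626% there. These limits cover counting error only.

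At 50 ng, 72.7% of the sites, or 29413, had a read in both replicates, against 80.4% of strong 5hmCGs with uCG reads and 9.78% of all autosomal CGs. At 5 ng, 13.9%, or 5618, had a read in both replicates, against 18.4% and 1.29%. A read in all 4 lower-input libraries was found at 4730 sites (11.7%), and 951 sites (2.35%) had a read in none of them. For strong 5hmCGs with uCG reads these shares were 16.5% and 1.30%. Almost all of the set was therefore seen again in at least 1 lower-input library, somewhat less often than the comparison. This came mainly from 50 ng. At 5 ng, 17967 sites (44.4%) had a read in neither replicate, against 37.3% of strong 5hmCGs with uCG reads.

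Mean coverage of the set was 7.68 and 7.24 reads per CG in the 50-ng replicates and 4.67 and 4.81 in the 5-ng replicates. At strong 5hmCGs with uCG reads, the 50-ng replicates gave 10.05 and 9.42 and the 5-ng replicates 6.17 and 6.30. The set was lower in all 4 libraries, at 0.765, 0.768, 0.757 and 0.763 times the comparison. The mean log2 ratio was -0.39 ± 0.0087 (SD, n = 4 libraries, p = 0.13, two-sided exact sign-flip permutation test, the smallest p that 4 libraries allow). On all 19 autosomes and in each library, the set had the lower mean.

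Since the set also had fewer reads at 500 ng, sites were compared within classes of 500-ng coverage. Within 4 classes of the lower 500-ng count, from 8 to 11, 12 to 15, 16 to 23 and 24 or more reads, the ratio ranged from 0.835 to 0.913 over the 4 libraries. Among the sites with 24 or more reads, the first 50-ng replicate had 18.4 reads per site of the set and 20.98 per site of the comparison. The difference was thus smaller within the classes and had the same direction in each class and library. The classes were wide and used only the lower count, so that coverage was not matched inside them. The part of such remaining differences was not tested.

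In the 5-ng libraries, reads were spread over fewer sites than in the 50-ng libraries. In the 50-ng libraries, 83.6% and 85.1% of the set had a read, with 9.19 and 8.51 reads per covered site. In the 5-ng libraries, only 35.2% and 34.3% had a read, and a covered site had 13.3 and 14.01 reads. The highest single count of a site was 77 at 50 ng and 174 at 5 ng.

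**Figure D3:**
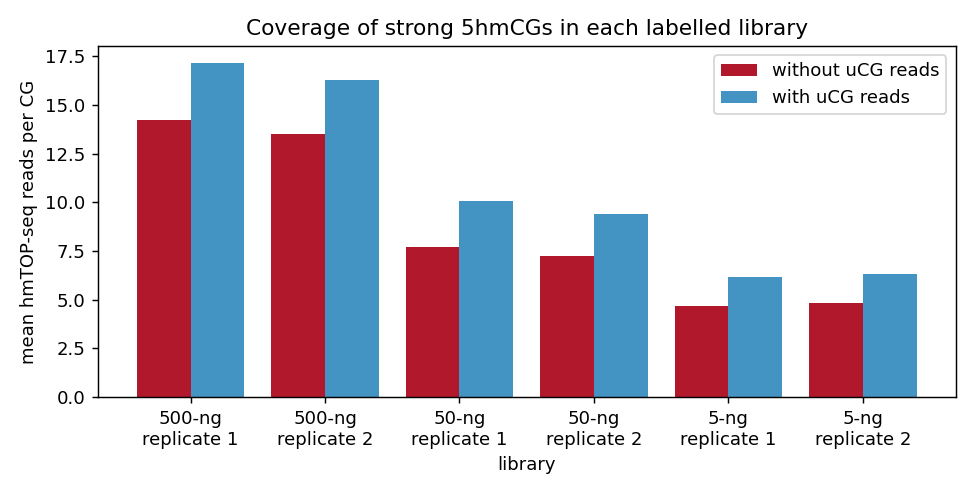
Mean hmTOP-seq reads per CG (y axis) in each labeled library (x axis) for strong 5hmCGs without (red) and with (blue) uTOP-seq reads. The 500-ng replicates chose the sites. In the 50-ng and 5-ng replicates, the red bars reach 0.757 to 0.768 of the blue ones.

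Whether the lack of uTOP-seq reads held in a replicate that did not choose the sites was examined by leaving out 1 of the 3 uTOP-seq replicates in turn. Strong 5hmCGs without a read in the other 2 replicates had a read in the left-out replicate in 48.9%, 42.7% and 39.5% of cases (replicates 1, 2 and 3). Strong 5hmCGs with a read in the others had one in 83.2%, 79.4% and 76.7%. The mean difference was -36.1 ± 1.56 percentage points (SD, n = 3 replicates, p = 0.25, two-sided exact sign-flip permutation test, the smallest p that 3 replicates allow). The direction was the same in all 3 replicates, but sites that differ in uTOP-seq depth would give it through the split alone. It is therefore no finding about the set. Of 79217 strong 5hmCGs unread in replicates 2 and 3, the 38732 with a read in replicate 1 are not sites of the set. Strong 5hmCGs with only 1 read in the other 2 replicates lay between, with a read in the left-out replicate in 65.6%, 59.0% and 54.9%. The difference thus also includes sites with many reads. In reads, sites without a read in the other 2 had 1.503, 1.11 and 0.954 reads in the left-out replicate, against 4.94, 3.95 and 3.42. Sites unread in 2 replicates were thus often read in the remaining one.

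The CGs around the sites also gave fewer uTOP-seq reads. With counts capped at 20 reads per CG and replicate, other CGs within 250 bp held 1.94, 1.57 and 1.38 reads each in the 3 replicates, against 3.03, 2.48 and 2.16 around strong 5hmCGs with uCG reads. The ratios were 0.642, 0.632 and 0.639, and the set was lower on all 19 autosomes in each replicate. The mean log2 ratio over autosomes was -0.62 ± 0.15 (SD) in replicate 1. Without the cap, the ratios were 0.531, 0.517 and 0.530, since a few stretches on chromosomes 11 and 17 held CGs with up to 1734 and 1428 uTOP-seq reads. Neighboring CGs also had fewer 50-ng hmTOP-seq reads, 7.79 per CG against 9.40. No uTOP-seq read at any other CG within 250 bp was found for 1164 sites (2.88%), against 0.669% of the comparison.

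Another CG was often very close to the sites. Another CG 2 bp away, counted from C to C, was found at 8.73% of the sites, against 2.86% of strong 5hmCGs with uCG reads and 3.78% of all autosomal CGs. Another CG 3 bp away was the nearest at 12.6%, against 4.03% and 3.19%. Put the other way, 15.7% of strong 5hmCGs with their nearest CG at 2 bp and 16.04% of those with it at 3 bp had no uTOP-seq read. The share was 8.43% at 4 bp, 4.75% from 11 to 20 bp and 3.85% beyond 30 bp.

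The share depended on the side at 2 bp and much less at 3 bp. Of 11465 strong 5hmCGs with another CG 2 bp before them on the plus strand, 26.7% were without uTOP-seq reads, with a mean over autosomes of 27.1 ± 3.08% (SD, n = 19). Of 11336 with another CG 2 bp after them, 4.73% were, with a mean of 4.91 ± 1.39%. The lowest autosome of the former was at 23.1% and the highest of the latter at 8.07%, so that the autosomes did not overlap. At 3 bp the shares were 16.2% before and 17.4% after.

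Read strands differed in the same places. At the second CG of a CGCG, strong 5hmCGs held 0.324 uTOP-seq reads from the plus strand and 4.88 from the minus strand. At the first CG they held 4.96 plus-strand and 10.01 minus-strand reads. The plus strand was without reads at 89.1% of the second CGs and at 30.2% of the first. Strong 5hmCGs with no other CG within 10 bp held 5.85 and 6.18 reads, about the same on both strands. The hmTOP-seq counts hold both strands together and cannot be compared by strand. Over both strands, the first and the second CG had 8.47 and 8.44 reads in the 50-ng libraries and 5.15 each in the 5-ng libraries, at sites all chosen for at least 8 reads in both 500-ng replicates. How the reads of neighboring CGs were assigned is not given for uTOP-seq in the sources used here, and its part in the result was not tested.

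**Figure D4:**
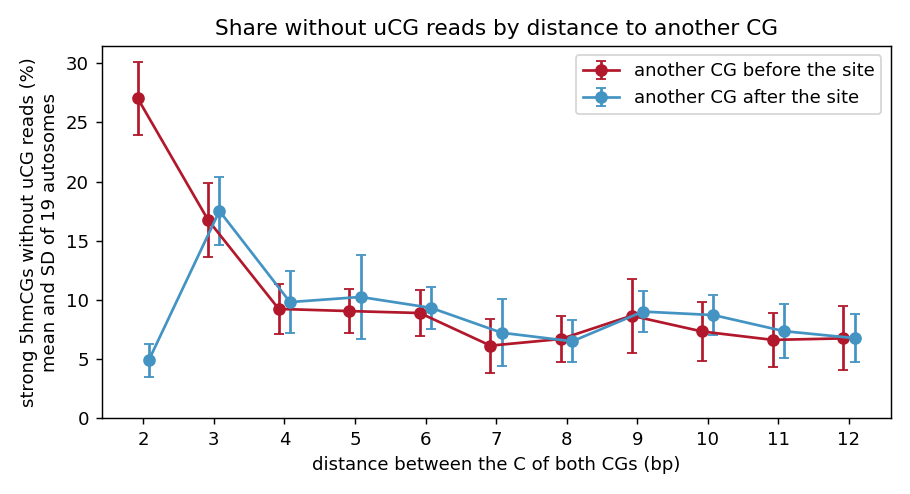
Share of strong 5hmCGs without uTOP-seq reads (y axis, %) by the distance from another CG (x axis, bp from C to C). Points and bars are the mean and SD of 19 autosomes for another CG before (red) or after (blue) the site on the plus strand. At 2 bp the means are 27.1% and 4.91%, and at 12 bp they are 6.75% and 6.77%.

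Of the 40485 sites, 20506 had no other CG within 10 bp. Among strong 5hmCGs of this kind, 4.24% were without uTOP-seq reads.

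The base before the CG differed between the set and the comparison. G stood before 22.9% of the sites and before 16.1% of strong 5hmCGs with uCG reads. A stood before 14.8% and 18.1%. The base after the CG differed less, with C at 18.6% and 16.4%. Of strong 5hmCGs in GCGC, 8.75% had no uTOP-seq read, in GCGG 8.07%, and in ACGT 2.94%. With no other CG within 10 bp, the values were 4.73%, 4.90% and 2.30%. Letters G before and C after a CG include part of the sites with a CG at 2 or 3 bp. CCGG was the most frequent context of the set, at 19.8%, and also of the comparison, at 21.2%.

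The number of CGs in the wider surroundings did not set the sites apart. Within 250 bp, the sites had a median of 9 other CGs and a mean of 10.2, and strong 5hmCGs with uCG reads had a median of 9 and a mean of 9.96. Quartiles were 6 and 13 in both. Over autosomes the difference was 0.330 ± 0.304 CGs (SD, n = 19), above 0 on 16 of them. The sign of the pooled difference of 0.258 changed with the window: within 100 bp the means were 4.97 and 4.51, and within 500 bp the difference was -0.391. With no other CG within 10 bp the difference was -0.431. Both sets lay in more CG-rich surroundings than CGs at large, which had a median of 5. The GC content within 250 bp was 51.1% and 51.7%, lower for the set on all 19 autosomes.

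By gene elements, the sites lay more often in repeats and far from genes than the comparison, and less often beside CG islands and upstream of genes. Soft-masked repeats held 16.5% of the sites, 9.66% of strong 5hmCGs with uCG reads and 24.6% of all CGs. The log2 odds of the set against the comparison were 0.87 ± 0.14 over autosomes (mean ± SD, n = 19), with all 19 above 0. Intergenic CGs, with no protein-coding gene within 50 kb, were 13.9% of the sites and 10.2% of the comparison, with log2 odds of 0.49 ± 0.16 and all 19 above 0. Without repeats, the pooled log2 odds of intergenic CGs were 0.335. Both sets held fewer intergenic CGs than the genome, where they were 26.5%.

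CG island shores, the 2 kb on each side of an island, held 6.81% of the sites, 9.89% of the comparison and 4.55% of all CGs, with log2 odds of -0.58 ± 0.13, below 0 on all 19 autosomes. The 2 kb upstream of genes held 2.75% of the sites, 3.73% of the comparison and 3.55% of all CGs, with -0.43 ± 0.21 and 1 autosome above 0. CG islands held 2.03% and 2.62%, below the 5.54% of all CGs.

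Within genes, the differences were small. Exons of protein-coding genes held 16.5% of the sites, 18.4% of the comparison and 8.37% of all CGs, and introns held 41.6%, 44.1% and 40.3%. The log2 odds of exons were -0.18 ± 0.22, within the spread over autosomes, and those of introns -0.15 ± 0.12. Coding sequence held 13.1% and 14.3%, 3′ UTRs 2.97% and 3.38%, and 5′ UTRs 0.958% and 1.20%. Among sites with no other CG within 10 bp, exons held 10.2% against 14.5%, and the log2 odds were -0.61 ± 0.31 with 1 of 19 autosomes above 0. The odds of exons thus moved with the closeness of other CGs, whereas those of repeats, at 0.92 ± 0.13, moved little.

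**Figure D5:**
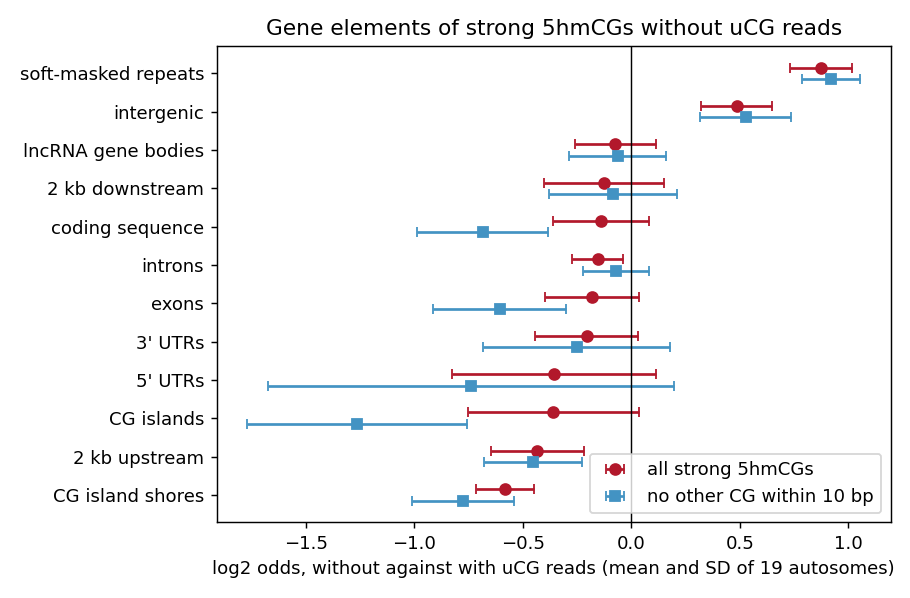
Log2 odds of lying in an element (x axis) for strong 5hmCGs without against with uTOP-seq reads, by element (y axis). Points and bars are the mean and SD of 19 autosomes, for all strong 5hmCGs (red) and for those with no other CG within 10 bp (blue). Repeats are at 0.87 and intergenic CGs at 0.49, and island shores are at -0.58.

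The odds of repeats rose with the local CG number. At 0 to 4 other CGs within 250 bp, the log2 odds of the set against the comparison were 0.49, and at 15 to 24 other CGs they were 2.04. At 25 or more they were 2.83, from 866 sites. The share of strong 5hmCGs without uTOP-seq reads ranged from 4.97% to 6.34% over these classes.

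Along gene bodies, divided into 10 equal parts from the start to the end, the share was 4.86% in the first part and between 5.18% and 5.73% in the others. Most sites of the gene bodies, 3528, lay in the last part, as did most strong 5hmCGs, 65872.

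The sites were scattered, with a median of 15239 bp from one to the next, and a minority stood in groups. Linked at up to 250 bp, they formed 36969 groups, of which 34124 were single sites, 2419 pairs and 292 groups of 3. Another site of the set lay within 250 bp of 15.7% of the sites. Of the strong 5hmCGs within 250 bp of a site, 11.1% were themselves without uTOP-seq reads, against 4.57% of those near strong 5hmCGs with uCG reads. The former was higher on all 19 autosomes. It remained higher without chromosome 14, at 10.4% against 4.43%, and among sites with no other CG within 10 bp, at 10.98% against 2.92%. At distances up to 10 kb the shares were 7.17% and 4.67%.

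The largest group held 16 sites in 737 bp at chr8:3793553-3794288, outside any annotated gene, with 12 of the sites in repeats. All 16 strong 5hmCGs of this stretch were without uTOP-seq reads. Their mean coverage was 8.75 and 8.50 reads in the 50-ng and 7.69 and 1.75 in the 5-ng replicates. The next 2 groups held 10 sites each, at chr6:107102997-107103467 and chr6:107951098-107951532, all in repeats. A group of 9 sites lay at chr14:61288750-61289203, within the range of few uTOP-seq reads. Another 9 sites lay at chr4:147219459-147219995 in the long noncoding RNA genes C230088H06Rik and Gm26624, with 18.4 and 19.3 reads per site at 50 ng. In the 5 largest groups, thus, at most 1 strong 5hmCG of the stretch had a uTOP-seq read.

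Over 1345 windows of 1 Mb with at least 100 strong 5hmCGs and outside chromosome 14, the share without uTOP-seq reads had a median of 5.14%, and 5% and 95% of windows lay below 2.91% and 11.3%. In 25 windows, it was above 15%. Several of them adjoined: all 4 windows from 64 to 68 Mb of chromosome 7 ranged from 17.6% to 19.9%. The highest share, 25.2%, was that of 35 among 139 strong 5hmCGs at chr16:76000001-77000000. Most sites in a window, 189, lay at chr11:88000001-89000000, which holds Msi2 and Cuedc1, where 13.2% of 1430 strong 5hmCGs were without uTOP-seq reads. That window had 5.61 uTOP-seq reads per CG over the 3 replicates, and the highest-share window had 1.68.

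Protein-coding gene bodies held 23513 sites, or 58.1%, against 62.5% of the comparison. At least 1 site was found in 8325 of 20807 autosomal protein-coding genes, and at least 20 sites in 68 genes. Across the 16298 genes with a strong 5hmCG, the number of sites and of strong 5hmCGs had a Spearman rho of 0.66, a description over genes that are not independent and share the same libraries. In the 2359 genes with at least 50 strong 5hmCGs, the median share without uTOP-seq reads was 4.49%, and 98 of these genes had no site.

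The gene with most sites, 466, was Gm20388, whose annotation spans 4435 kb of chromosome 8 and overlaps 73 other protein-coding genes, Gse1 among them, so that its sites cannot be given to 1 gene. Next came Nav2, a neuron navigator protein of the cytoskeleton, with 101 of its 613 strong 5hmCGs at chr7:48908716-49610090, a share of 16.5%. The sites of Nav2 had 9.07 and 8.73 reads each in the 50-ng and 3.95 and 5.74 in the 5-ng replicates, and 33 of them had another CG within 10 bp. Zfhx3, a zinc finger homeobox transcription factor, held 79 sites at chr8:107942644-108961630, or 8.09% of its strong 5hmCGs. Fgfr2, a fibroblast growth factor receptor with an annotation of 2961 kb that overlaps 30 other protein-coding genes, held 71, or 4.86%. Msi2, an RNA-binding protein of the Musashi family, held 68 sites at chr11:88339382-88718513, or 10.3%, with 9.09 and 8.94 reads each at 50 ng. Only 1 of them lay in an exon.

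Other genes with many sites belonged to varied classes. Wwox, an oxidoreductase with WW domains, held 58 sites in 913 kb, none of them in an exon. Casz1, a zinc finger transcription factor, held 53, Gse1 held 52 and Rbpms, an RNA-binding protein, held 43. Camta1, a calmodulin-binding transcription activator, and Fto, an RNA demethylase, held 39 each, and Igf1r, the receptor of insulin-like growth factor 1, held 35. In Gse1 the sites were 3.41% of 1523 strong 5hmCGs, and in Igf1r they were 18.3% of 191. A high number of sites thus came with low as well as high shares. Pebp4, Enox1 and Ptprg, with 55, 53 and 46 sites, lie on chromosome 14, the first 2 within the range of few uTOP-seq reads from 40 to 98 Mb. Ptprg lies between 3 and 20 Mb, where the uTOP-seq replicates held 0.694, 0.561 and 0.488 reads per CG, the 500-ng replicates together 1.60, and the share without uTOP-seq reads was 18.5%.

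Per length, among genes with at least 20 sites, Phldb1 came first with 42.9 sites per 100 kb at chr9:44686304-44735198. It was followed by Slc4a8, a bicarbonate transporter, and Tmem104, with 35.4 and 35.3 per 100 kb. Casz1 had 35.2, Slc38a1, an amino acid transporter, 35.0, and Cuedc1 32.3. Lima1, an actin-binding protein, had 30.9, Rbpms 29.2, and Pebp4 and Tsc22d1 on chromosome 14 had 25.1 and 23.7.

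By share, Fhit, between 3 and 20 Mb of chromosome 14 like Ptprg, came first among genes with at least 50 strong 5hmCGs, with 18 of 66 (27.3%). Tjp1, the tight junction protein ZO-1, had 34 of 132 without uTOP-seq reads (25.8%) at chr7:65296165-65527781. Its sites had 11.2 and 10.3 reads each at 50 ng. Lrrk1, a protein kinase in the neighboring 1-Mb window, had 22 of 86 (25.6%). Ctnna3, a catenin of cell junctions, had 31 of 122 (25.4%), and Cables1 22 of 94 (23.4%). Lima1 and Slc38a1, both on chromosome 15, had 22.4% and 22.3%, and Slc9a3r1, a scaffold protein of membrane transporters, had 21.8%. Lrch1 with 23.9% and Myh6, the alpha heavy chain of cardiac myosin, with 22.4% lie within the chromosome 14 range of few reads. The shares of the leading genes are the highest of 2359 and were chosen as such. The 1-Mb windows that hold Tjp1, Lrrk1 and Cables1 had shares of 19.9%, 18.1% and 24.4%, with the sites of these genes included. Whether a gene differed from its surroundings was not tested.

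Genes of embryonic stem cell regulation are given here by list, beside 8325 of 20807 autosomal protein-coding genes (40.01%) that held a site. Of 18 pluripotency factors, 5 held a site, 14 sites in all or 2.67% of their 524 strong 5hmCGs. Esrrb, an orphan nuclear receptor of the pluripotency network, held 5 sites among 235 strong 5hmCGs, the zinc finger factor Sall4 held 4 and the nuclear receptor Nr5a2 held 2. Of 14 DNA methylation and demethylation enzymes, 8 held a site, 22 in all or 2.90% of 758. Tet3 held 5, and Tet1 and the methyltransferase Dnmt3a held 4 each. The shares of both lists lay below the 5.75% of all strong 5hmCGs, as did those of the lists that follow. That value includes sites outside genes. In genes with at least 50 strong 5hmCGs, the median share was 4.49%. With so few sites, no difference of these lists from other genes was tested.

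Polycomb subunits held 33 sites in 10 of 21 autosomal genes, 4.36% of their strong 5hmCGs. The chromodomain subunit Cbx7 held 12 of them, the cofactor Jarid2 7 and Cbx2 3. Primed-state and lineage regulators held 20 sites in 5 of 19 genes, or 5.18%. Of these, 14 were in Gata4, a transcription factor of endoderm and heart, which lies within the chromosome 14 range, and Hand1 and Pax6 held 2 each. Genes of LIF, FGF and WNT signaling held 126 sites in 11 of 20 genes, or 4.68%, of which 71 were in Fgfr2. Lef1 and Tcf7l1, transcription factors of WNT signaling, held 12 each. The median number of sites per gene was 2 for the signaling list, 1 for the enzymes and 0 for the other lists and for all genes.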

How the data were processed

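5hmC and unmodified CGs of E14TG2a DNA were measured in 15 libraries, grouped by input and labeling. Libraries titled K were taken as the controls without BGT. The authors mapped reads to mm10, dropped those with a mapping quality below 30 and duplicates by start and read length (no molecular identifiers), and deposited read counts per CG and library, not normalized. The uTOP-seq steps were not described in the sources used here. Libraries held 32502791 and 31918445 CG reads at 500 ng, 14884939 to 23027170 at 50 and 5 ng, 3409 to 10072 in controls and 20120568 to 28412885 in uTOP-seq.

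Counts were joined by position, all 21353092 on a CG of GRCm38. Elements came from GENCODE vM21, and islands and soft-masked repeats from the sequence. Values over sites are descriptions, with the mean and SD of 19 autosomes. Libraries were compared by exact permutation tests, and intervals are Clopper-Pearson. Genes named are the 15 with most sites, the 10 with most per kb (at least 20 sites), the 10 with the highest share (at least 50 strong 5hmCGs) and the top 3 of each list. The sites and lists were chosen with earlier results of these data known. The second set of 4 sequences was added after seeing the data, as were leaving out chromosome 14 or sites with a CG within 10 bp, capping uTOP-seq reads and leaving out chromosomes 11 and 17. All 8 steps checked on simulated data were right. Python 3.11.15, numpy 2.4.6, pandas 2.3.3 and scipy 1.17.1 were used.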

Additional observations from a re-analysis of the deposited data

Results flagged for a closer look

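Chromosome X was outside the set. By the same counts, 322 of its 2829 strong 5hmCGs had no uTOP-seq read on either strand. They held 3699 reads in the labeled 50-ng libraries, which had 23027170 and 22052535 CG reads in total. In the 6 control libraries they held 0 reads, but these libraries had only 3409 to 10072 CG reads each. With so few control reads, the count of 0 says little. Of all CGs of chromosome X, 66.6% had no uTOP-seq read.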

How the results depend on the processing

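Of 211 alternative values over 14 results, 149 stayed the same, 56 moved, 3 changed sign and 3 no longer passed the test. Moved values changed by more than the spread where there was one. This was the SD over autosomes, over replicates for the held-out difference, and over labeled libraries for the labeled minus control difference. The number of sites had no spread, and 9 of its values counted as moved. For uTOP-seq reads at neighboring CGs, the spread of 0.544 was wide and taken without the cap. The number of sites was 105826 and 14473 with minimums of 5 and 12 reads, 73951 with at most 1 uTOP-seq read, 20506 with no other CG within 10 bp, and 66903 to 97183 without 1 replicate. The share of strong 5hmCGs was 7.99% with a minimum of 5 reads, 10.5% with at most 1 uTOP-seq read, and 7.83% to 11.3% without 1 replicate. The local CG difference changed sign with a 500-bp window (-0.391) and with no other CG within 10 bp (-0.431), and ranged from -0.0142 to 0.0973 without 1 replicate. Without 1 replicate, the log2 odds of shores ranged from -0.73 to -0.537, of repeats from 0.662 to 0.942, and of a CG within 3 bp from 1.57 to 1.67. With no other CG within 10 bp, those of exons were -0.585 and of shores -0.763, and intergenic odds were 0.335 without repeats. In classes of 0 to 4, 5 to 9, 15 to 24 and 25 or more other CGs, those that moved were 0.494, 0.601, 2.04 and 2.83 for repeats, 0.336 (0 to 4) and 1.13 (15 to 24) for intergenic CGs, -0.409 (5 to 9), -0.885 and -0.797 (15 and more) for shores, and -0.529 and -0.601 (15 and more) for exons.

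The log2 ratio of 50-ng coverage was -0.487 and -0.298 with minimums of 5 and 12, -0.0787 for the share with a read, -0.313 with reads capped at 20, -0.214, -0.162, -0.138 and -0.176 in the 4 classes of 500-ng coverage, and -0.572 to -0.351 without 1 replicate. For 5 ng it was -0.504 with a minimum of 5, -0.223 for the share, -0.32 capped, -0.224, -0.183, -0.152 and -0.242 in the classes, and -0.575 to -0.365 without 1 replicate. The held-out difference was -37.8 with a minimum of 12. The cause of these changes was not tested.

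With the replicate number as a block, the labeled minus control difference was 1.15 percentage points, with p = 0.13 by the exact sign-flip permutation test, the smallest 4 pairs allow. Same-numbered libraries deviated together at 50 ng and in opposite directions at 5 ng, so the numbers were not taken as a pairing. Without replicate 1 or 2 of these libraries the difference was 1.19 and 1.11, where 2 against 2 libraries cannot pass the test, and over all replicates left out it ranged from 1.11 to 2.28, the upper end with sites chosen without uTOP-seq replicate 1. Positions are those of the C57BL/6J reference, and differences of the cells' own genome from it were not examined.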
